A study of Homo sapiens with 6 samples.

Results

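The genes examined encode the machinery of cell division: the kinetochore, the spindle checkpoint, the mitotic kinases and the proteins that condense, separate and partition chromosomes. They are a list of 54 genes given by symbol, with no threshold on a measured value but with earlier results of these data known, and each matched 1 of the 58656 gene rows of the deposited tables. All 54 passed the filter on low counts that left 16481 genes to be tested, and the lowest count of any of them in a library was 247.9, for CENPW. Expression was measured by sequencing of polyadenylated RNA in MDA-MB-231, an established human line of triple-negative breast cancer. The treated group had 3 libraries from cells given mitocurcumin at 5 µM for 9 hours, and the control group had 3 libraries from cells given the DMSO vehicle for 9 hours. Mitocurcumin is a derivative of the plant compound curcumin that is directed to mitochondria. Both groups grew in the same serum-containing medium, and no genetic change was made in either. The replicates are titled biological, but separate cultures are not mentioned, so p-values here measure the spread between these libraries, which may be technical.

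At the entry to mitosis, cyclin B bound to the kinase CDK1 drives chromosome condensation and spindle assembly. Kinetochores then build on centromeres that carry the histone variant CENPA, and attach to microtubules through the NDC80 complex. Until each kinetochore is attached, the spindle checkpoint holds back CDC20, the activator of the anaphase-promoting complex (APC/C), a ubiquitin ligase whose substrates include securin and cyclin B. Most of these transcripts accumulate in G2 and mitosis, under the MuvB complex with B-MYB and FOXM1, so their level in a culture follows how many cells are in those phases as well as how strongly each cell transcribes them. In bulk RNA, fewer cells in a phase and less RNA per cell cannot be told apart.

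Levels are given as CPM, the gene's reads scaled to a common library total, and total counts ran from 23146822 to 29104681. Transcripts of the line's mesenchymal markers VIM, CD44 and AXL were abundant, at 637 CPM or more in every library, while ESR1 and PGR, the steroid receptors that triple-negative cells lack, stayed at or below 0.354 CPM. ERBB2, the growth factor receptor HER2, reached at most 48.9 CPM. It passed the test as lower, with a log2 fold change of -0.35 ± 0.10 (SE), but not without mitocurcumin replicate 2 or 3. EPCAM and CDH1, also listed as low in this line, were at 19.1 to 24.3 and 1.17 to 3.20 CPM, and neither passed the test. On a principal component analysis, control replicate 1 lay at 31.3 on the second component, apart from the other controls at -17.1 and -17.2. Markers of other cell types, 7 genes in all, summed to 37.1 to 46.5 CPM in the controls and 25.02 to 29.2 CPM after mitocurcumin. Of these, PECAM1 and COL1A2 passed the test as lower, while COL1A1, a fibroblast marker like COL1A2, did not pass it at 0.12 ± 0.13 (log2 fold change ± SE). PDGFRB did not pass it either, at -0.13 ± 0.18. PTPRC reached at most 1.45 CPM, ALB at most 0.173 CPM, and HBB was at 0 in every library. NEAT1, a nuclear noncoding RNA, rose by 0.65 ± 0.07 (log2 fold change ± SE), and MALAT1 did not pass the test at 0.14 ± 0.26. The part of these differences in the results below was not tested.

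Transcripts of the cell division genes fell together after mitocurcumin, by modest amounts. Of the 54 members, 50 were lower and 0 were higher at an adjusted p under 0.05 in edgeR's quasi-likelihood test, where 17.8% of all tested genes were lower, 14.7% were higher and 32.5% changed in either direction. The fitted change was below 0 for all 54, and at an unadjusted p under 0.05 the counts were again 50 lower and 0 higher. DESeq2 gave 48 lower and 0 higher, and limma voom gave 50 and 0. In 50 members every mitocurcumin library lay below every control library, against 23.7% of all tested genes. The median log2 fold change was -0.44, with a range from -0.89 for CENPI to -0.06 for CENPH, and the median over all tested genes was -0.01. Of the members, 13 were at least 1.5-fold lower and 0 were at least 2-fold lower.

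Summed over the members, the level was 11777, 12777 and 13156 CPM in control replicates 1, 2 and 3, and 8856, 9288 and 8952 CPM in mitocurcumin replicates 1, 2 and 3. The groups did not overlap in this sum, which was 1.39-fold lower after treatment. Control replicate 1 held the lowest control value of 35 of the 54 members, and mitocurcumin replicate 2 held the highest treated value of 30. These libraries therefore lay nearest to the opposite group for most members. Without control replicate 1 the members' median change was -0.47 and 49 were lower, and without mitocurcumin replicate 2 it was -0.44 and 44 were lower. Replicates of a member varied little, with a median coefficient of variation of 6.47% in the controls and 4.65% after treatment. Across the 54 genes, the change correlated weakly with the mean level (Pearson r = -0.20, Spearman rho = -0.16), a description over genes that share the same 6 libraries.

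Besides CDC25C, 4 members overlap a gene on the opposite strand that held at least 10% of their own count, so their values are uncertain to that extent if counting ignored strand. These are CCNA2 with EXOSC9, which was lower at -0.35 ± 0.09, and CENPU with PRIMPOL, FOXM1 with RHNO1 and NCAPG with LCORL, whose partners lay at -0.09, -0.05 and -0.08.

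**Figure D1:**
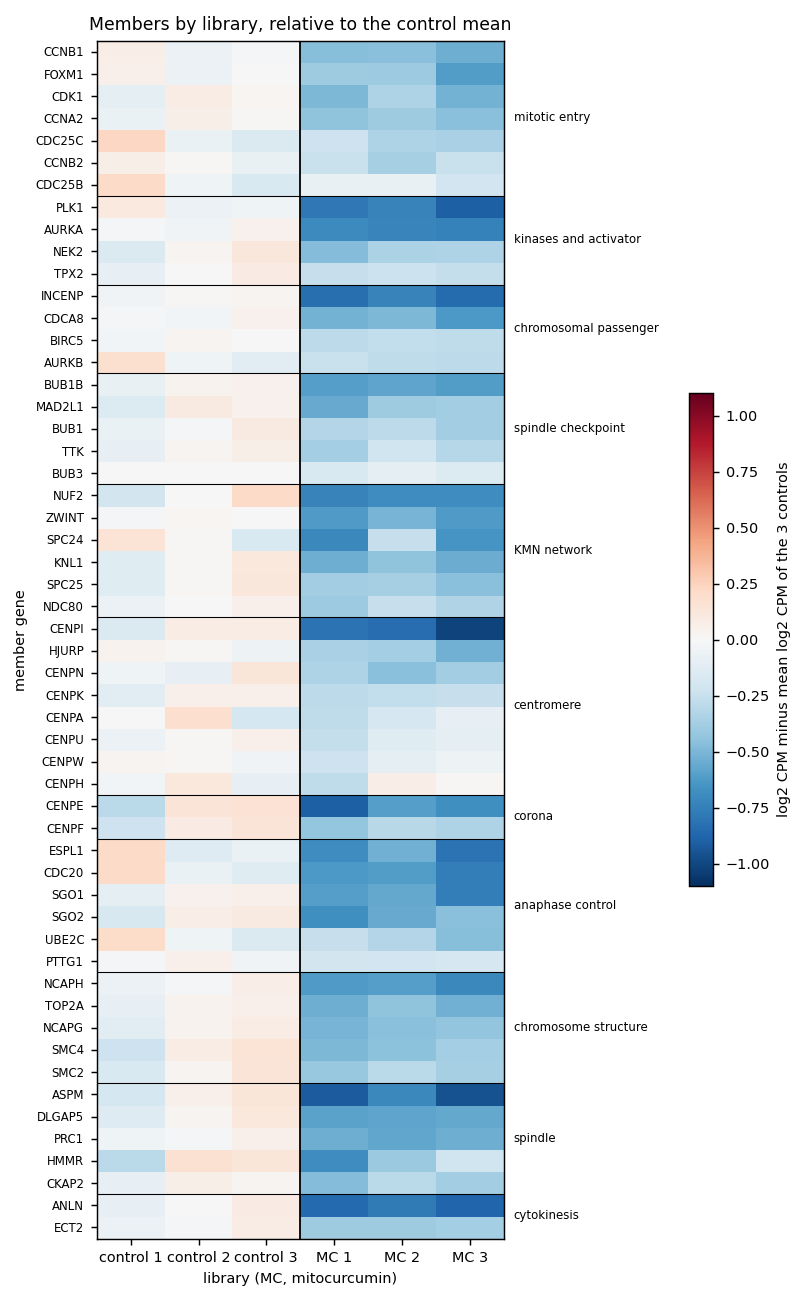
Level of each of the 54 members (rows, grouped by role) in each of the 6 libraries (columns), as log2 CPM minus the mean of the 3 control libraries, from blue (lower) to red (higher). The 3 mitocurcumin columns are blue in nearly every row, with ASPM and CENPI among the darkest and CENPH, CENPW, BUB3 and CDC25B among the palest.

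The promoters of these genes are known for a pair of sequence elements: the cell cycle genes homology region (CHR), through which MuvB complexes bind, and CCAAT boxes, bound by NF-Y. RefSeq promoter windows on GRCh38.p14, from 250 bases before to 50 after each annotated start, were matched by gene ID for 45 members, some with several starts, giving 59 windows. The 9 members without an entry are AURKA, BUB3, TTK, CENPH, KNL1, BIRC5, TPX2, UBE2C and FOXM1. The CHR was searched as TTTGAA or TTTAAA and the CCAAT box as CCAAT, each on both strands. TTTAAA reads the same on either strand and was counted once per position. A CHR match was in 67.8% of the members' windows, against 18.3% of the windows of tested genes and 24.0% of all 35116 windows. A CCAAT match was in 71.2% of the members' windows, against 34.6% of tested genes' windows and 34.6% of all. Both were present in 50.8% of the members' windows, against 7.10% and 9.27%.

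The 150 bases before the start are shown for 4 members that fell and for CENPA and CENPW, which did not pass the test, to set their elements side by side. They are written 5′ to 3′ on the gene's strand, and capitals mark each CHR or CCAAT match on either strand. All lie on the plus strand of GRCh38.p14, at chr5:69167000-69167149 (CCNB1), chr16:23678739-23678888 (PLK1), chr1:43358831-43358980 (CDC20), chr11:62123861-62124010 (INCENP), chr2:26785906-26786055 (CENPA) and chr6:126339965-126340114 (CENPW).
CCNB1: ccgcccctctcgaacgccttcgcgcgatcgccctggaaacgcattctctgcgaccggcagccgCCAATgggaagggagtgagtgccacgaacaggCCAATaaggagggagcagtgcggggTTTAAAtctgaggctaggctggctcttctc
PLK1: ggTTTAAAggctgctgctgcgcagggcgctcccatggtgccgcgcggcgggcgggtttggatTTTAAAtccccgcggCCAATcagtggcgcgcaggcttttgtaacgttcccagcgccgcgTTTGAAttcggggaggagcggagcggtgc
CDC20: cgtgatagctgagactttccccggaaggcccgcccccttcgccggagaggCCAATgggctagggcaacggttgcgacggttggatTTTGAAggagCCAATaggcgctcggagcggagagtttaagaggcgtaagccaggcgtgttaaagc
INCENP: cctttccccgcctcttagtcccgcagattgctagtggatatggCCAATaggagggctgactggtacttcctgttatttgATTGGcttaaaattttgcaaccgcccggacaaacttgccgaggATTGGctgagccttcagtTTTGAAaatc
CENPA: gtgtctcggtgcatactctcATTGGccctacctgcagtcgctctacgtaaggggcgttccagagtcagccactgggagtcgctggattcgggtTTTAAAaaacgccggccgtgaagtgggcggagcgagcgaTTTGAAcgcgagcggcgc
CENPW: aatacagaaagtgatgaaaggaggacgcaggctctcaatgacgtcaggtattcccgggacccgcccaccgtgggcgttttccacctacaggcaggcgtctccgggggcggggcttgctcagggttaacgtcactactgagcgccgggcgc

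The stretch of CCNB1 holds 1 CHR and 2 CCAAT matches, that of PLK1 3 and 1, that of CDC20 1 and 2, and that of INCENP 1 and 3. CENPA holds 2 CHR matches and 1 CCAAT match although its transcript did not pass the test, and CENPW holds 0 of either in these bases. The full window of CENPW, which reaches further upstream than the bases shown, has 2 CCAAT matches and 0 CHR matches. The only window of CENPI, which is not shown and whose fall was the largest of the members, has 0 of either. It lies at 101100808 to 101101107 on chromosome X, inside the gene's span, which starts at 101098204. The bases before that outermost start were not searched. Counting each gene once, the median change was -0.48 for the 34 members with a CHR match in any window and -0.39 for the 11 with none, and the ranges overlapped, from -0.87 to -0.13 and from -0.89 to -0.13. Those with none include CENPI, CKAP2 and AURKB, whose windows all lay inside the gene's span. For these genes a match at the outermost start would have been missed. CENPI and CKAP2 are also among the members with no CCAAT match. For CCAAT the medians were -0.44 for 35 members with a match and -0.54 for 10 with none. Over windows, where members with several starts count repeatedly, the CHR medians were -0.46 and -0.32 and the CCAAT medians -0.43 and -0.39, so the order for CCAAT depends on the unit counted. A match describes these letters only and does not show that a factor was bound.

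The drivers of mitotic entry fell in 6 of 7 members. CCNB1, cyclin B1 (Entrez 891, chromosome 5, 69167150 to 69178245, GRCh38), was at 326, 296 and 307 CPM in the controls and at 223, 225 and 214 CPM after mitocurcumin. CDK1, its kinase partner (Entrez 983, chromosome 10, 60778331 to 60794852), was at 244, 276 and 264 CPM in the controls and at 185, 206 and 182 CPM after treatment. In both genes the groups were well separated, with every treated value below every control value. CCNB1 changed by -0.49 ± 0.05 (log2 fold change ± SE over 3 and 3 libraries, adjusted p = 3.1e-06 in edgeR's test), a 1.40-fold fall, and CDK1 by -0.45 ± 0.06 (edgeR adjusted p = 2.9e-05).

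CCNA2, cyclin A2, which acts from S phase into mitosis, fell by 0.43 ± 0.05 on the log2 scale. FOXM1, the transcription factor that activates many genes of this list, changed by -0.47 ± 0.06, from a mean of 179 ± 7.40 to 129 ± 10.9 CPM (SD, n = 3). The second B-type cyclin, CCNB2, fell by 0.29 ± 0.07 on the log2 scale, and the log2 ratio of CCNB1 to CCNB2 went from 1.98 to 1.78. The CDC25 phosphatases remove the inhibitory phosphates from CDK1. CDC25C was at 31.5, 25.6 and 24.0 CPM in the controls and 22.9, 21.2 and 21.0 CPM after mitocurcumin, with separate groups. It changed by -0.32 ± 0.11 (edgeR adjusted p = 0.033), a call that did not hold when control replicate 1 was left out (edgeR adjusted p = 0.11) or when mitocurcumin replicate 1, 2 or 3 was (edgeR adjusted p = 0.066, 0.13 and 0.12). Without control replicate 1 its change was -0.19. CDC25C also overlaps FAM53C on the opposite strand, a gene with more counts at 0.28 ± 0.08 (edgeR adjusted p = 0.014, and 0.070, 0.075 and 0.059 when control replicate 2, mitocurcumin replicate 2 or mitocurcumin replicate 3 was left out), and whether the counting used strand was not given in the sources used here. CDC25B was the member of this group that did not pass the test, at 137, 114 and 106 CPM against 112, 112 and 103, with overlapping groups and a change of -0.13 ± 0.08 (edgeR adjusted p = 0.25). That value rested mostly on control replicate 1, without which it was -0.02.

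**Figure D2:**
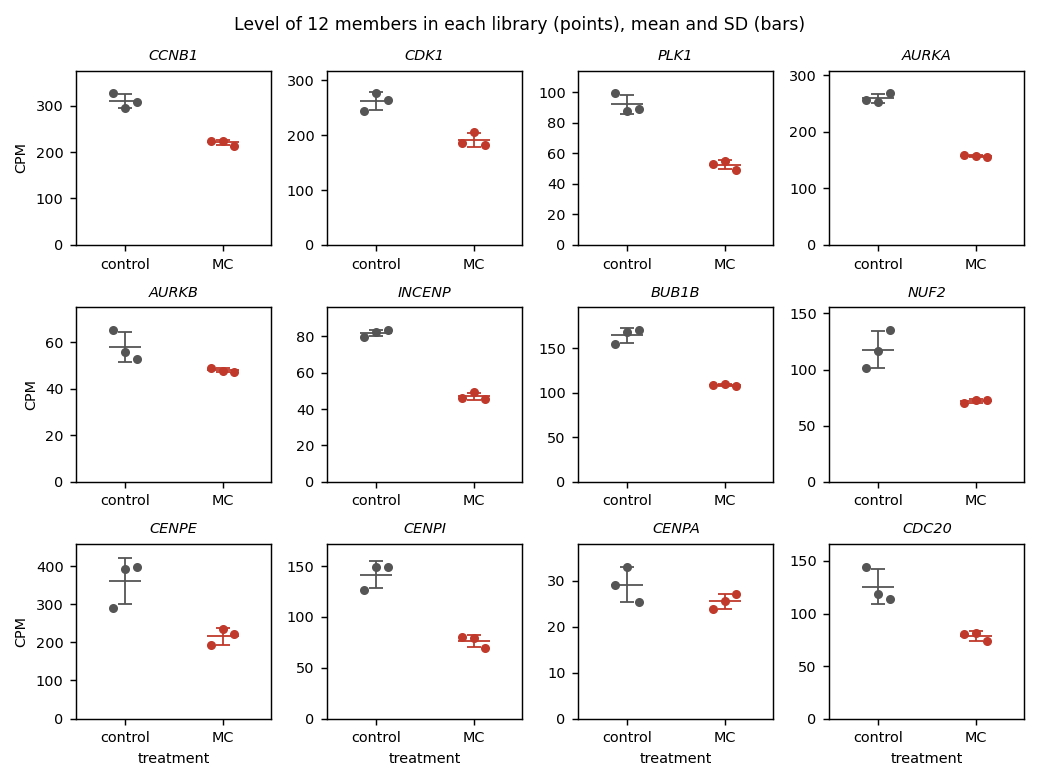
CPM (vertical axes, starting at 0) of 12 members in the 3 control and 3 mitocurcumin (MC) libraries, with each library as a point and bars for mean and SD. The groups are separate in 11 panels, and in the CENPA panel they overlap.

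Among the mitotic kinases, PLK1 and AURKA fell most. PLK1, polo-like kinase, which acts in entry, centrosome maturation and cytokinesis (Entrez 5347, chromosome 16, 23678889 to 23690367), was at 99.3, 87.9 and 89.1 CPM in the controls and at 53.2, 55.1 and 49.3 CPM after mitocurcumin. AURKA, the Aurora kinase of the spindle poles (Entrez 6790, chromosome 20, 56369390 to 56392215), was at 256, 252 and 268 CPM and then at 159, 156 and 155 CPM. The treated values of AURKA were close together, with an SD of 2.09 CPM, and well below the controls. The change of PLK1 was -0.81 ± 0.07 (edgeR adjusted p = 1.7e-07), a 1.75-fold fall, and that of AURKA was -0.72 ± 0.05 (edgeR adjusted p = 1.5e-08), a 1.65-fold fall. NEK2, a kinase of centrosome separation, changed by -0.39 ± 0.08. TPX2, which activates AURKA on spindle microtubules, fell least of this group, from 715, 761 and 807 CPM to 638, 644 and 635 CPM, by 0.25 ± 0.06. The log2 ratio of AURKA to TPX2 went from -1.55 ± 0.06 to -2.03 ± 0.02 (SD, n = 3).

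The chromosomal passenger complex, which corrects faulty attachments at the centromere and later acts in cytokinesis, fell in 4 of 4 members. INCENP, the scaffold (Entrez 3619, chromosome 11, 62124011 to 62153169), was at 79.9, 82.5 and 83.5 CPM in the controls and at 46.2, 49.2 and 45.5 CPM after treatment. Its change of -0.80 ± 0.06 (edgeR adjusted p = 7.3e-08) was a 1.75-fold fall. CDCA8, borealin, changed by -0.55 ± 0.06. BIRC5, survivin, was at 109, 114 and 111 CPM and then at 90.9, 92.2 and 91.6 CPM, so that its groups were separate although the change was only -0.28 ± 0.05. AURKB, the kinase of the complex, was at 65.1, 55.7 and 52.9 CPM and then at 48.8, 47.5 and 47.4 CPM, and changed by -0.27 ± 0.08 (edgeR adjusted p = 0.014). Leaving out mitocurcumin replicate 1, 2 or 3 took that p to 0.0504, 0.073 and 0.059, and without control replicate 1 the change was -0.18. The log2 ratio of INCENP to BIRC5 went from -0.44 ± 0.03 to -0.96 ± 0.05 (SD, n = 3), and that of AURKA to AURKB from 2.16 ± 0.18 to 1.71 ± 0.01.

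Spindle checkpoint genes fell in 5 of 5 members. BUB1B encodes BUBR1, a part of the inhibitory complex that binds CDC20. It was at 155, 169 and 170.4 CPM in the controls and at 108, 110.1 and 107 CPM after mitocurcumin, with a change of -0.60 ± 0.06 (edgeR adjusted p = 4.4e-07). MAD2L1, the MAD2 protein of the same complex (Entrez 4085, chromosome 4, 120055623 to 120066848), was at 159, 189 and 183 CPM and then at 120.1, 135 and 135 CPM, a change of -0.44 ± 0.07. The kinases BUB1 and TTK, which start the checkpoint signal at kinetochores, changed by -0.33 ± 0.06 and -0.30 ± 0.06. BUB3, the binding partner of BUB1 and BUBR1, was at 329, 331 and 331 CPM in the controls and at 294, 308 and 297 CPM after treatment. The control values of BUB3 were close together, with an SD of 1.40 CPM. Its change was small, at -0.14 ± 0.05 (edgeR adjusted p = 0.040), and the call was lost in 12 of 15 alternatives. Leaving out any library other than control replicate 1 gave BUB3 an edgeR adjusted p between 0.0837 and 0.195. The log2 ratio of BUB1B to BUB3 went from -1.01 ± 0.07 to -1.46 ± 0.02 (SD, n = 3).

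The KMN network, made of the NDC80 complex, the MIS12 complex and KNL1, is the microtubule-binding part of the kinetochore. The 6 members grouped here all fell, but they include no subunit of the MIS12 complex. Of the genes of that complex, outside the members, DSN1 and NSL1 were lower, at -0.54 ± 0.06 and -0.34 ± 0.09. MIS12 and PMF1 did not pass the test, at -0.13 ± 0.07 and 0.02 ± 0.11. NUF2 was at 102, 117 and 135 CPM in the controls and at 70.2, 73.0 and 72.7 CPM after mitocurcumin, a change of -0.71 ± 0.08 (edgeR adjusted p = 6.8e-06). NDC80, with which NUF2 forms a dimer (Entrez 10403, chromosome 18, 2571557 to 2616635), was at 143, 149.8 and 156 CPM and then at 113, 125 and 119 CPM, a change of -0.33 ± 0.06. The log2 ratio of NUF2 to NDC80 went from -0.35 ± 0.14 to -0.73 ± 0.05 (SD, n = 3). The other subunits of the NDC80 complex, SPC24 and SPC25, changed by -0.53 ± 0.12 and -0.41 ± 0.09, and the ratio of this pair overlapped between the groups. KNL1, which docks the BUB proteins, changed by -0.51 ± 0.06, and its binding partner ZWINT by -0.58 ± 0.06.

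Genes of the centromere gave the widest range, with 5 of 8 lower and 3 not past the threshold. CENPI, a subunit of the constitutive centromere network (Entrez 2491, chromosome X, 101098204 to 101166126), was at 126, 149 and 149 CPM in the controls and at 80.2, 79.1 and 69.6 CPM after mitocurcumin. Its change of -0.89 ± 0.07 (edgeR adjusted p = 1.4e-07), a 1.86-fold fall, was the largest of the 54 members. CENPH, a subunit of the same subcomplex as CENPI, was at 17.0, 18.8 and 16.3 CPM and then at 14.3, 18.3 and 17.5 CPM. Its groups overlapped and its change was -0.06 ± 0.12 (edgeR adjusted p = 0.74), the smallest of the members. The log2 ratio of CENPI to CENPH went from 3.02 ± 0.15 to 2.20 ± 0.26 (SD, n = 3). CENPK, another subunit of that subcomplex, changed by -0.27 ± 0.07.

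CENPA, the histone variant that marks the centromere (Entrez 1058, chromosome 2, 26786056 to 26794589), was at 29.1, 33.1 and 25.4 CPM in the controls and at 24.0, 25.6 and 27.2 CPM after mitocurcumin. Its groups overlapped and its change of -0.19 ± 0.10 did not pass the test (edgeR adjusted p = 0.18). HJURP, the chaperone that deposits CENPA, did fall, from 166, 163 and 155 CPM to 126, 124 and 112 CPM, by 0.42 ± 0.06. The ratio of CENPA to HJURP overlapped between the groups. CENPN, which binds CENPA nucleosomes, changed by -0.40 ± 0.07. CENPU changed by -0.17 ± 0.06 (edgeR adjusted p = 0.039), a call lost in 10 of 15 alternatives, with edgeR adjusted p-values of 0.0502 to 0.26 when any library other than control replicate 1 was left out and a change of -0.11 without mitocurcumin replicate 1. CENPW, a histone-fold protein, lay below the controls in every treated library, at 10.0, 11.0 and 11.3 against 11.9, 11.9 and 11.4 CPM, but its change of -0.13 ± 0.12 did not pass (edgeR adjusted p = 0.45). CENPH, CENPW and CENPA had totals of 2557, 1686 and 4117 counts over the 6 libraries, and their SEs of 0.10 to 0.12 were above the members' median of 0.07. SPC24, HMMR and CDC25C had fewer counts than CENPA, at 3182, 3405 and 3640, and were called lower. The part of depth in these calls was not tested.

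At the outer corona of the kinetochore, both members fell. CENPE, a kinesin that moves chromosomes to the spindle equator, was at 291, 393 and 398 CPM in the controls and at 192, 235 and 223 CPM after mitocurcumin, a change of -0.74 ± 0.12. CENPF, a large coiled-coil protein, was at 790.3, 988 and 1022 CPM and then at 690.2, 749 and 735 CPM, a change of -0.36 ± 0.08. In both genes control replicate 1 was well below the other controls and still above every treated library.

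**Figure D3:**
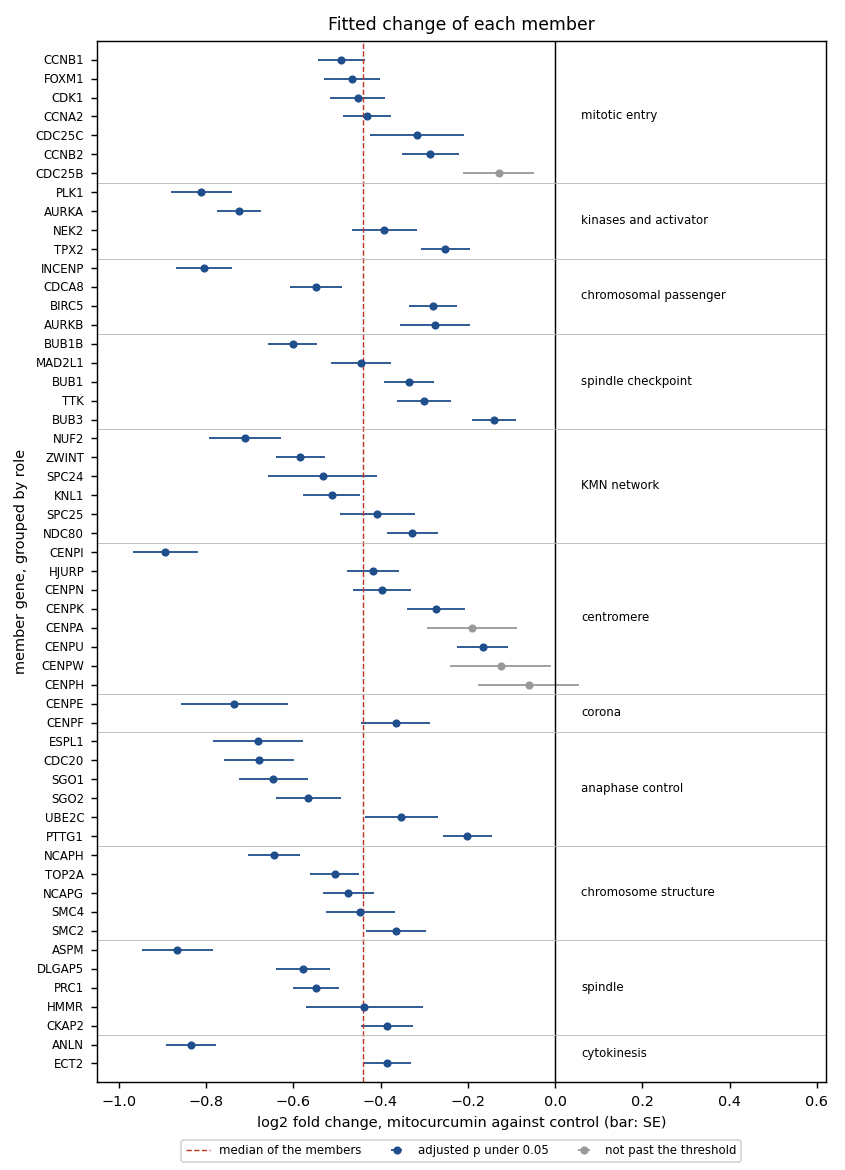
Fitted log2 fold change of mitocurcumin against control for each member (points, with bars of 1 SE), grouped by role, with the members' median as a dashed line. Blue points passed the threshold at an adjusted p under 0.05, the 4 grey points (CDC25B, CENPA, CENPW and CENPH) did not, and no point lies above 0.

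Genes that control anaphase fell in 6 of 6 members. CDC20 (Entrez 991, chromosome 1, 43358981 to 43363203) was at 144, 119 and 114 CPM in the controls and at 80.5, 81.7 and 73.6 CPM after mitocurcumin. The highest control value was that of replicate 1, and the lowest control was still above every treated library. Its change was -0.68 ± 0.08 (edgeR adjusted p = 8.5e-06), a 1.60-fold fall. ESPL1, separase, the protease that cuts cohesin, changed by -0.68 ± 0.10, while PTTG1, securin, its inhibitor, was at 112, 119 and 111 CPM and then at 98.9, 98.5 and 100.5 CPM. The treated values of PTTG1 were close together, and its change of -0.20 ± 0.06 was the smallest of this group (edgeR adjusted p = 0.0098). Its call did not hold when control replicate 2 (edgeR adjusted p = 0.080) or mitocurcumin replicate 1 or 2 (0.057 and 0.059) was left out. The log2 ratio of ESPL1 to PTTG1 went from -1.34 ± 0.22 to -1.81 ± 0.16 (SD, n = 3). UBE2C, the ubiquitin-conjugating enzyme of the APC/C, changed by -0.35 ± 0.08. The shugoshins SGO1 and SGO2, which protect centromeric cohesin, changed by -0.65 ± 0.08 and -0.57 ± 0.07, and their ratio overlapped between the groups.

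Genes of chromosome structure fell in 5 of 5 members. TOP2A, the topoisomerase that untangles sister chromatids (Entrez 7153, chromosome 17, 40388525 to 40417896), was at 1318, 1442 and 1463 CPM in the controls and at 968, 1033 and 975 CPM after mitocurcumin. That was a change of -0.50 ± 0.06 (edgeR adjusted p = 3.2e-06). In the condensin complexes, NCAPH, the subunit that closes the ring of condensin I, changed by -0.64 ± 0.06 and NCAPG by -0.47 ± 0.06. The core ATPases SMC4 and SMC2, which both condensins share, changed by -0.45 ± 0.08 and -0.37 ± 0.07.

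Among spindle proteins, 5 of 5 fell, and ASPM, a protein of the spindle poles, fell most. It was at 395, 469 and 495 CPM in the controls and at 239, 275 and 232 CPM after mitocurcumin, a change of -0.87 ± 0.08 (edgeR adjusted p = 1.2e-06) or 1.82-fold. DLGAP5, a microtubule-binding partner of AURKA, changed by -0.58 ± 0.06, and PRC1, which bundles the central spindle, by -0.55 ± 0.05. CKAP2 changed by -0.39 ± 0.06. HMMR was at 21.0, 28.96 and 28.3 CPM and then at 16.1, 19.4 and 22.2 CPM, so that its groups overlapped through control replicate 1. It changed by -0.44 ± 0.13 (edgeR adjusted p = 0.020), and leaving out control replicate 2 or 3 took that p to 0.081 and 0.10, and mitocurcumin replicate 1 or 2 to 0.13 and 0.075. In cytokinesis, ANLN, anillin, which organizes the contractile ring, was at 826, 878 and 938 CPM and then at 488, 513 and 482 CPM. Its change of -0.83 ± 0.06 (edgeR adjusted p = 1.4e-08) was a 1.78-fold fall. ECT2, the exchange factor that activates RhoA there, changed by -0.38 ± 0.05.

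Members that act together were also compared by the ratio of their CPM within each library. Of 16 pairs of partners, chosen with the results known, 12 had ratios that did not overlap between the groups, and over all 1431 pairs of the 54 members 49.1% did not. Because the pairs were chosen knowing their values, nothing is read from that count. Each of the 12 had p = 0.10 in a two-sided exact permutation test and 0.13 after adjustment over the 16 pairs. With 3 libraries against 3 that test cannot give a smaller p, so it could not have passed 0.05 for any pair, and the shifts are given as a description. The largest shift was that of CENPI to CENPH, by -0.83 on the log2 scale, followed by INCENP to BIRC5 at -0.52, ESPL1 to PTTG1 at -0.48, AURKA to TPX2 at -0.47, BUB1B to BUB3 at -0.46, AURKA to AURKB at -0.45 and ANLN to ECT2 at -0.45. In SPC24 to SPC25, SGO1 to SGO2, SMC4 to SMC2 and CENPA to HJURP the groups overlapped, with shifts of -0.13, -0.08, -0.08 and 0.24 and exact permutation p-values of 0.60, 0.80, 0.20 and 0.20.

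**Figure D4:**
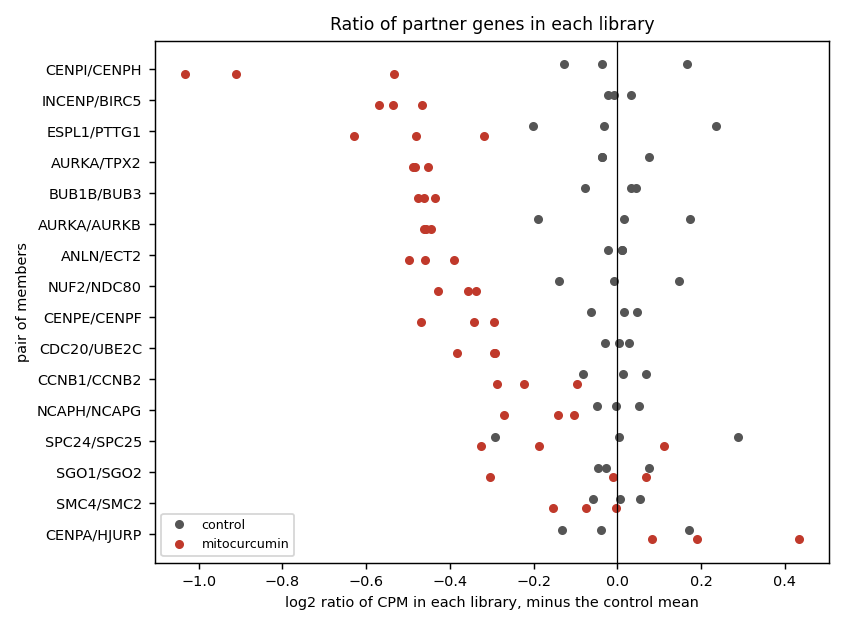
Log2 ratio of the CPM of 2 partner genes in each library, less the mean of the 3 control libraries (horizontal axis), for 16 pairs, with control libraries in grey and mitocurcumin libraries in red. The red points lie left of all grey points in 12 pairs, furthest for CENPI/CENPH, and mix with them in the 4 lowest pairs.

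Other genes of cell division, outside the 54, fell more or less widely according to their group. All 12 mitotic kinesins were lower, with a median of -0.48, led by KIF20A at -0.97 ± 0.06, from 165 ± 1.53 to 84.4 ± 5.88 CPM (SD, n = 3). Of 27 genes of S phase and its onset, 24 were lower and 0 higher, with a median of -0.46 next to the members' -0.44, led by CCNE2, cyclin E2, at -1.56 ± 0.09. Of 15 regulators of mitotic entry and exit, 11 were lower and 0 higher, with CDC25A, a phosphatase that also acts at the start of S phase, at -0.82 ± 0.08. These 3 groups had no gene above 0. Over all tested genes, 17.8% were lower and 14.7% higher.

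The remaining groups were mixed, and their counts stand next to the same shares over all tested genes, 17.8% lower and 14.7% higher. Of 28 further kinetochore and centromere genes, 12 were lower and 0 higher, with a median of -0.22. Without mitocurcumin replicate 1 the count of lower genes was 8, and under the alternatives up to 2 were higher. SKA3, of the microtubule-tracking SKA complex, led them at -0.59 ± 0.07, while its partner SKA1 lay above the controls in every treated library, at 0.17 ± 0.06, without passing the test (edgeR adjusted p = 0.054). SKA1 did pass as higher in 5 of 15 alternatives, with adjusted p-values of 0.046 by DESeq2 and, in edgeR, 0.044 with DESeq2's size factors, 0.027 with a filter at a mean of 1 CPM, 0.026 with upper quartile scaling and 0.032 without control replicate 1. Of 17 APC/C subunits and regulators, 5 were lower and 3 higher. FBXO5, the APC/C inhibitor EMI1, changed by -0.61 ± 0.06 and ANAPC11, the catalytic RING subunit, rose by 0.47 ± 0.13, from 8.32 ± 0.57 to 11.6 ± 0.84 CPM (edgeR adjusted p = 0.0077, and 0.0501 without mitocurcumin replicate 3). The count of lower APC/C genes was 2 at a threshold of 0.01 and at most 8 over the other alternatives. Cohesin and the other condensin genes had 7 lower and 2 higher of 17. ESCO2, the cohesin acetyltransferase of S phase, changed by -0.95 ± 0.07 and its paralog ESCO1 rose by 0.35 ± 0.07. Of 12 genes of the DREAM and MuvB complexes, which repress and then activate the mitotic genes, 6 were lower, among them RBL1, the p107 pocket protein, at -0.57 ± 0.06 and MYBL2, B-MYB, at -0.36 ± 0.06, and 1 was higher, E2F5 at 0.37 ± 0.10 (edgeR adjusted p = 0.012, and 0.0509 without control replicate 3). In the 7 genes of midbody formation and abscission, 3 were lower, led by CIT, citron kinase, at -0.41 ± 0.06, and 0 were higher.

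**Figure D5:**
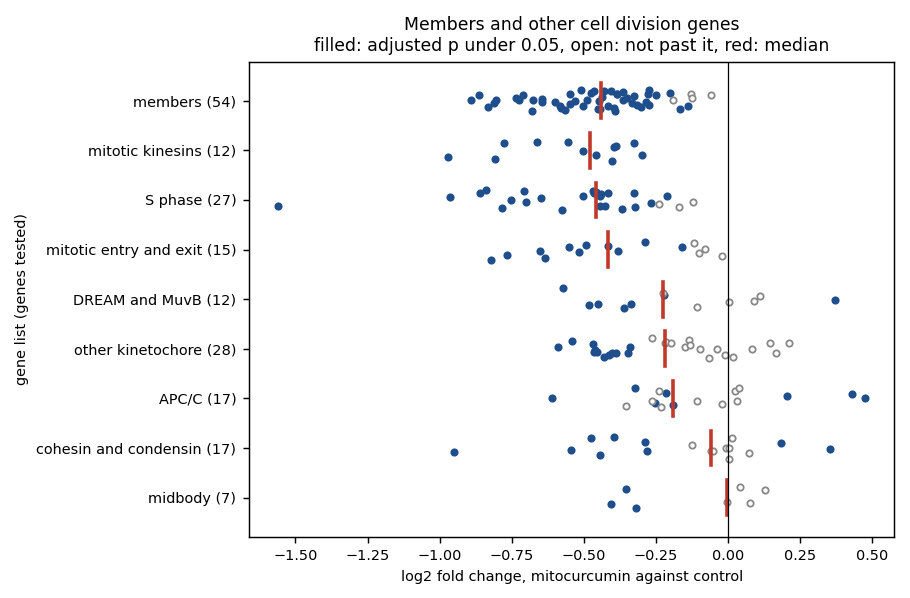
Log2 fold change of mitocurcumin against control (horizontal axis) for each of the 54 members and each gene of 8 other lists of cell division genes, with filled points past an adjusted p under 0.05, open points not past it, and a red bar at the median. The members, the mitotic kinesins and the S phase genes all sit below 0, with medians of -0.44, -0.48 and -0.46, while the APC/C, cohesin and midbody lists straddle 0.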

How the data were processed

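Trizol-extracted RNA was poly(A)-captured and made into stranded libraries, per the labels' protocols. Reads were placed on GRCh38 (submitters' processing notes), with genes from RefSeq (named in the file headers). How reads were aligned and counted, and whether strand was used, is not given in the sources used here. One deposited table holds estimated counts: library totals differ, and 20.2% to 21.4% of the values above 0 are whole. The other deposited table holds log2 values that equal the log2 of those counts less 1 constant per library, checked where counts were above 0.

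Estimated counts were rounded to whole numbers. The test was the quasi-likelihood F-test of edgeR 4.0.16 (R 4.3.3), fitted robustly with TMM scaling and filterByExpr defaults (minimum count 10, minimum total 15). The group was the only term, as the labels give no batch. In the column headers, the S number of mitocurcumin replicate 2 lies far outside the run of the others. What these numbers stand for is not given. The p-values were adjusted over all 16481 genes by the Benjamini-Hochberg method, and an adjusted p under 0.05 was the threshold. CPM used TMM-scaled totals over tested genes, and marker CPM the full totals. Each SE is the log2 fold change divided by the square root of F. The fit was tried on simulated data with 100 genes lowered 1.5-fold and 100 lowered 2-fold among 16275. It called 88% and 99% of these, and 10 of its 197 calls were false. Rises, and falls smaller than 1.5-fold as in most members, were not simulated. The lowered genes were drawn only from those above a floor of mean CPM. They were a far smaller share than the 32.5% of genes called in the data, so these rates need not carry over to that fit. Same-group libraries differed by 5.31 to 18.7 chi-square units per gene, more than sampling, so none was counted as a duplicate.

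The members, lists and partner pairs were chosen with earlier results of these data known. Named genes were those with the largest and smallest change in each role, those not past the threshold, 13 listed whatever their result, and the most changed gene in each direction of each other list. Further genes, SKA1 and MYBL2 among them, were named after their values were seen. Alternatives were other scalings, filters and thresholds, DESeq2 1.42.0, limma 3.58.1 (voom, and on the deposited log2 values), a replicate block and each library left out.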

Additional observations from a re-analysis of the deposited data

How the results depend on the processing

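The fall of the members held under all 15 alternatives tried: 44 to 50 of the 54 were lower and 0 were higher in each, and their median change lay between -0.47 and -0.40, while the median over all genes lay between -0.01 and 0.02. The 15 comprised 6 in which 1 library was left out, with 44 to 49 lower, and 9 others, with 45 to 50 lower. Of the 50 members called lower, 44 kept the call in all 15, and AURKB, BUB3, CDC25C, CENPU, HMMR and PTTG1 lost it in at least 1. CENPH, which was not called, ranged from -0.12 without mitocurcumin replicate 2 to 0.0525 without mitocurcumin replicate 1, and was also above 0, at 0.01, without control replicate 2. The replicate numbers gave no clear pairing: deviations from the group mean in same-numbered libraries correlated at 0.10, 0.02 and -0.01 over 16481 genes. The value of 0.10, for replicates 1, was the highest of all, and differently numbered libraries ran from -0.11 to 0.09. With a replicate block 49 members were lower, with a median of -0.44. Totals over the 6 libraries went down to 1686 counts for CENPW (SE 0.12), and CENPE had an SE of 0.12 with 43077 counts. Whether depth limited the calls was not tested.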
